A study of Mus musculus with 6 samples.

Results

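The genes described here encode the PAR bZIP transcription factors DBP, TEF and HLF, together with NFIL3, the bZIP factor that opposes them. All probes whose symbol, in upper case, was DBP, TEF, HLF or NFIL3 were taken from a mouse Illumina BeadChip. The rule gave 3 genes with 4 probes (2 for Tef, 1 for Dbp and 1 for Hlf), of 30854 distinct symbols and 45281 probes in the table. Nfil3 was not analysed here, so the activators could not be set against their repressor, and Tef was compared with Dbp instead. The cells were mGLUTag, a mouse L-cell line that can be grown without limit and that releases the incretin GLP-1 (glucagon-like peptide-1), as the enteroendocrine L-cells of the gut do. All samples were starved of serum, synchronized with forskolin, which raises cAMP, and returned to growth medium, and RNA was taken at 4 h (n = 3) and 16 h (n = 3). The study took the earlier time for the peak of Arntl, which encodes the clock activator BMAL1, and the later time for its trough, and no unsynchronized sample was analysed here. It is not stated whether the samples of a time point came from separate cultures, so every p-value measures only the spread between these samples, which may be technical.

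PAR bZIP proteins carry a domain rich in proline and acidic residues beside a basic leucine zipper. As pairs they bind the D-box, a short DNA element, and activate the gene beside it, whereas NFIL3 (also called E4BP4) binds the same element and represses. Transcription of Dbp, Tef and Hlf is driven by BMAL1 and CLOCK and held back by the PER and CRY proteins, while Nfil3 is repressed by REV-ERB proteins through another element, the RORE. The activators and the repressor therefore oscillate in different phases in many tissues, and in liver, kidney and brain the activators carry the clock signal to genes of detoxification, heme and vitamin B6 metabolism.

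The promoters of the 3 activator genes were read from RefSeq windows (assembly GRCm38.p6, 250 bases before to 50 bases after a start site), since the clock acts on these genes at the DNA. They are printed 5' to 3' on the strand of the gene, with a match to any of the motifs searched in capitals. The motifs were the E-box CACGTG, the related E'-box CACGTT, the D-box as TTANGTAA or TTATGNAA, the cAMP response element TGACGTCA and the RORE half-site AGGTCA, each on both strands. The window of Dbp lies at chr7:45704997-45705296 (plus strand), that of Hlf at chr11:90390868-90391167 (minus strand), and Tef has 2 windows, an upstream one at chr15:81802423-81802722 and a downstream one at chr15:81811164-81811463 (both plus strand). No source names the genome build of the array, so the windows were matched by gene symbol alone. The start sites of the Dbp window and of the downstream Tef window lie inside the gene spans given below.
Tef upstream: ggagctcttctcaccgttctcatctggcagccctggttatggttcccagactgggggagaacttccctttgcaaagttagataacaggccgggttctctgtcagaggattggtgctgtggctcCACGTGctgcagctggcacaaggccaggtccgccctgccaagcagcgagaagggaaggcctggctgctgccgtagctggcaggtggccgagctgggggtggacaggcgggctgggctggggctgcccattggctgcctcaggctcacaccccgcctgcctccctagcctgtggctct
Tef downstream: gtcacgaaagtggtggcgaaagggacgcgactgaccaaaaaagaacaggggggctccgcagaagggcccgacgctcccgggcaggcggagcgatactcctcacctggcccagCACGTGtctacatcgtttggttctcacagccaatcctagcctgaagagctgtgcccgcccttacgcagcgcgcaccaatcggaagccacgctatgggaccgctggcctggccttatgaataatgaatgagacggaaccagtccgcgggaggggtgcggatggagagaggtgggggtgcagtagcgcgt
Dbp: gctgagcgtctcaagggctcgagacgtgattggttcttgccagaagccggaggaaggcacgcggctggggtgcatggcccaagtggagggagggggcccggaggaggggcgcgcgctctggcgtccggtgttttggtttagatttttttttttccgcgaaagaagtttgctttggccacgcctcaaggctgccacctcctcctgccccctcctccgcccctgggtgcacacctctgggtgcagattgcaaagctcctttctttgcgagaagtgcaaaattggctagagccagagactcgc
Hlf: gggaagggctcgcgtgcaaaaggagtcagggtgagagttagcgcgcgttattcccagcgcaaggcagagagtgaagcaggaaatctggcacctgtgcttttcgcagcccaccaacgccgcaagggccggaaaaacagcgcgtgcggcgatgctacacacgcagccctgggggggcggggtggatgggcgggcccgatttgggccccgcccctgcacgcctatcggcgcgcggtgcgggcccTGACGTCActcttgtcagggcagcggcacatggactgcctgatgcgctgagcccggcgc

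Each Tef window held 1 E-box, at position -127 in the upstream window and -138 in the downstream one, counted from the start site of that window. Over all 32851 mouse windows of this length, 7.15% held the E-box. The Hlf window held 1 cAMP response element at position -9, a sequence that 1.79% of all windows held. The Dbp window held none of these letters, which says nothing of sites elsewhere in the gene. None of the 4 windows held the D-box, the E'-box or the RORE half-site, which were found in 4.712%, 4.685% and 16.26% of all windows. A match is a description of the sequence, and binding was not measured.

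On the arrays a probe was called detected where its deposited intensity lay above a noise limit on all 6 arrays. Each array had its own limit, derived from its negative values, which lay between 9.2 and 14 intensity units. Detection held for 14941 probes. Between 16964 and 17847 probes lay above the limit on an array, and arrays carry no counts, so their number limits the precision. The labelled cell type was checked against its markers. Of 13 L-cell markers, 11 exceeded the limit on at least 3 arrays, Gcg and Chga among them, and Pyy and Pcsk1 did not. No enterocyte marker of the 5 with a probe, 1 of 4 goblet and Paneth markers (Tff3) and 1 of 6 fibroblast markers (Col1a1) did so. The deposited intensities were not normalized between arrays and averaged 322 ± 31.3 at 4 h and 236 ± 17.0 at 16 h (SD, n = 3 each), so the whole signal was brighter at 4 h. After background correction and quantile normalization the detected probes had a median log2 change of 0.0014, and 1% of them lay below -0.40. Log2 changes are 4 h minus 16 h throughout and are relative to the other probes of an array. In RNA from a whole culture, fewer cells that express a gene and less RNA per cell cannot be told apart.

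Tef, which encodes thyrotroph embryonic factor, was lower at 4 h than at 16 h, and Dbp, which encodes the D-box binding protein, lay in the same direction without passing the threshold and had a change of 0.0011 without normalization between arrays. Hlf, which encodes hepatic leukemia factor, and the second Tef probe gave no signal above noise. Across all probes 4 passed the threshold of 0.05 on the limma adjusted p (0.00883%), 2 of them as lower at 4 h (0.00442%), and 1 of these 2 was Tef. Thus 1 of the 4 member probes was called. That call was kept in 4 of 18 alternative ways of processing. It was lost whenever an array was left out (limma adjusted p 0.113 to 0.500). The study itself reported no gene as significantly lower at 4 h. At an unadjusted p under 0.05 limma had 1178 probes lower (2.6%) and 1278 higher at 4 h, and both detected member probes were among the lower ones.

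The Tef gene spans chr15:81802673-81826863 in GRCm38.p6. Its probe ILMN_2676052 had deposited intensities of 154.8, 132.9 and 162.5 at 4 h and of 211.6, 251.1 and 189.1 at 16 h. Every 16 h array was above every 4 h array before any normalization, although the arrays as a whole were dimmer at 16 h. Such a separation was seen in 13 of the 14941 detected probes (0.087%). The mean intensity was 150 ± 15.4 at 4 h and 217 ± 31.4 at 16 h (SD, n = 3 each), a ratio of 1.45 in favor of 16 h. In the deposited values 270 detected probes (1.81%) had the lower mean at 4 h, and Tef stood 8th lowest of all by its ratio.

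Normalized log2 intensities of this Tef probe were 7.46, 7.63 and 7.57 at 4 h and 8.28, 8.45 and 8.39 at 16 h. Both groups were separated by more than the spread within either of them, with means of 7.56 ± 0.09 and 8.37 ± 0.08 (SD, n = 3 each). The log2 change was -0.82 (SE 0.077, 95% interval -0.99 to -0.64, limma adjusted p = 0.0338), which is a 1.76-fold higher level at 16 h. No detected probe had a lower change, and only 1 had a larger change in either direction. With an array left out Tef ranked between 1 and 6 from the lowest, and without background correction it ranked 5. The probe was of ordinary brightness, at percentile 51.1 of the detected probes. An exact two-sided permutation test of the 6 values gave p = 0.1, the smallest that 3 arrays against 3 allow. The call did not survive the loss of any single array, after which the log2 change was between -0.87 and -0.77 and the limma adjusted p between 0.113 and 0.500. It was also lost in several other ways of processing, in all of which the change stayed below 0. The change was smaller with median scaling (-0.46, limma adjusted p = 0.0533) and without normalization between arrays (-0.37, limma adjusted p = 0.0744), where the detected probes had medians of 0.30 and 0.39.

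The second Tef probe, ILMN_2715400, had intensities of 5, 8.5 and 0.4 at 4 h and of 8.2, 4.3 and 6.3 at 16 h. All 6 values lay below the noise limit of their array, so no change is given for it. Since the probe sequences were not used here, it is not known whether both probes read the same Tef transcripts. When the probes were averaged, Tef changed by -0.44 on the log2 scale with a limma adjusted p of 0.144.

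The Dbp gene spans chr7:45705100-45710203. Its probe ILMN_2616226 had deposited intensities of 930.5, 767.8 and 733.9 at 4 h and of 742.5, 921.5 and 773.5 at 16 h. These values overlapped, and their means were nearly equal, at 811 ± 105 and 812.5 ± 95.7 (SD, n = 3 each). Most probes were brighter at 4 h, however, and the ratio of 4 h to 16 h for Dbp was the 267th lowest of 14941.

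After normalization the log2 intensities of Dbp were 9.63, 9.68 and 9.35 at 4 h and 9.87, 10.11 and 10.13 at 16 h. All 16 h values were then above all 4 h values, as for 823 of the detected probes (5.51%). The means were 9.55 ± 0.18 and 10.04 ± 0.15 (SD, n = 3 each). The log2 change was -0.48 (SE 0.11, 95% interval -0.73 to -0.24), or 1.40-fold higher at 16 h, with an unadjusted p of 0.00148 and a limma adjusted p of 0.395. Dbp was not called, and its change was the 66th lowest of the 14941 detected probes. The rank was 215 without 4 h replicate 3, 116 without 16 h replicate 2, 163 with median scaling and 381 without background correction. Its direction rested on the normalization between arrays, because without that step the log2 change was 0.0011, against a median of 0.39 over the detected probes. With median scaling the change of Dbp was -0.09, against a median of 0.30. In both of these settings the 16 h values were no longer all above the 4 h values. The exact two-sided permutation p was 0.1, the smallest possible here.

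The Hlf gene spans chr11:90336535-90390917. Its probe ILMN_2759687 had intensities of 5.3, -1.1 and 5.4 at 4 h and of 4.7, 2.7 and 2.8 at 16 h. None lay above the noise limit, and no level or change of Hlf is given.

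**Figure D1:**
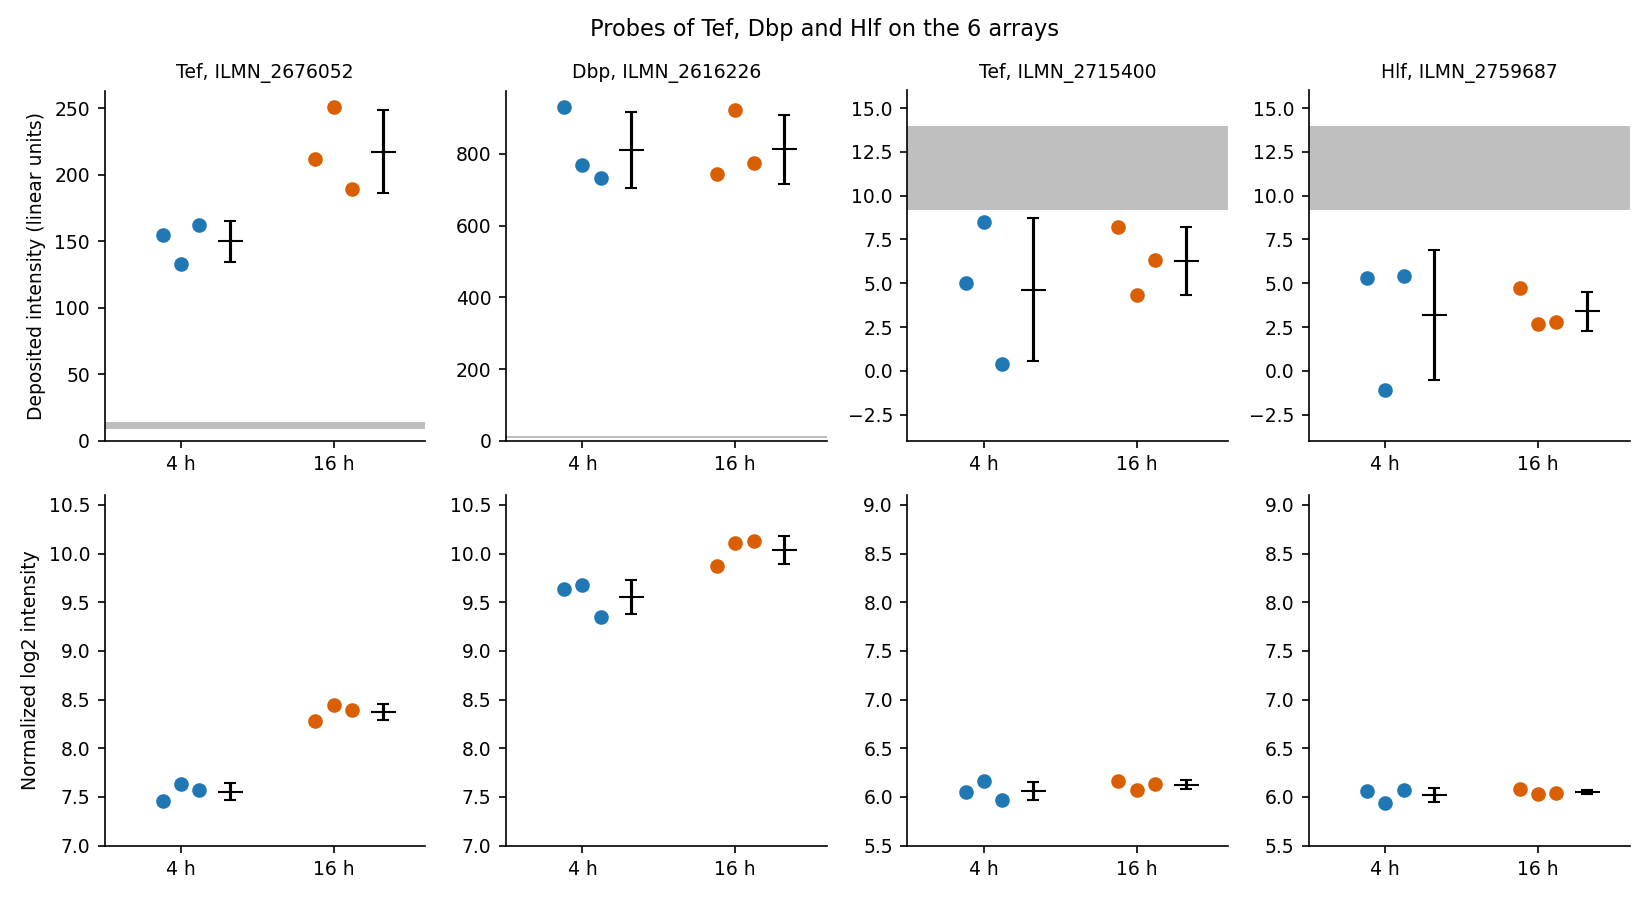
Deposited intensity in linear units (upper row) and normalized log2 intensity (lower row) of the 4 member probes at 4 h (blue) and 16 h (orange). Points are arrays, bars are the mean with its SD (n = 3) and the gray band spans the noise limits of the arrays, which lay from 9.2 to 14. The Tef probe ILMN_2676052 separates the time points in both rows, Dbp in the lower row, and the probes ILMN_2715400 and ILMN_2759687 stay below the band.

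The changes of the detected activators were compared within each array. The log2 intensity of Tef minus that of Dbp, centered on the mean over the arrays, was -0.34, -0.21 and 0.05 at 4 h and 0.24, 0.17 and 0.09 at 16 h. No overlap was left between the time points, but 4 h replicate 3 and 16 h replicate 3 were close to each other. The change of Tef thus exceeded that of Dbp by -0.33 on the log2 scale, and the exact two-sided permutation test over the 6 arrays gave p = 0.1, again the smallest it can give. With the Tef probes averaged, one of which lay below the noise limits, the difference was 0.045 and so of the other sign. This was the 1 pair compared, and it was chosen because no probe of the repressor was analysed here.

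The arrays differed in their 18S ribosomal RNA probes, whose mean log2 intensity was 8.50, 6.91 and 10.57 at 4 h and 9.24, 7.71 and 7.02 at 16 h. Both time points overlapped in this measure. With it as a covariate, Tef changed by -0.80 (limma adjusted p = 0.0402) and Dbp by -0.42 on the log2 scale (limma adjusted p = 0.178).

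**Figure D2:**
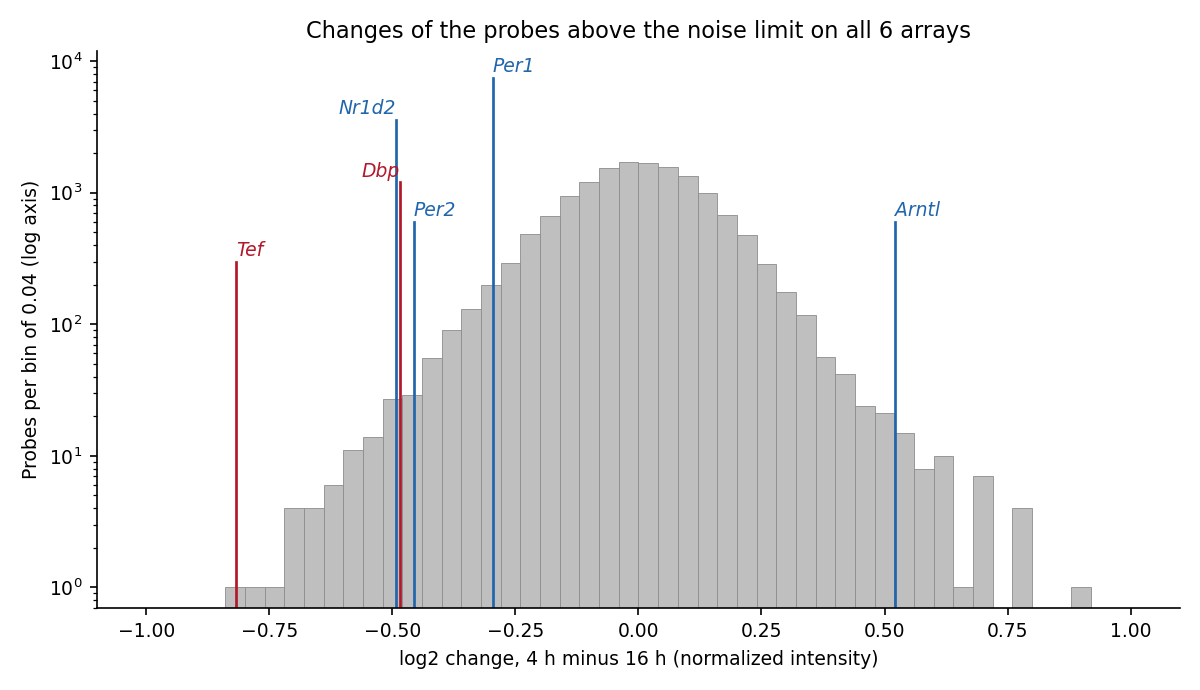
Histogram of the log2 change, 4 h minus 16 h, of the 14941 detected probes, with the number of probes on a log axis. Lines mark member probes in red and clock genes in blue, and their heights carry no value. Tef lies at the lower end at -0.82, Dbp lies at -0.48 beside Nr1d2 and Per2, and Arntl lies on the other side at 0.52.

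Clock genes with known D-boxes were examined next, as genes on which PAR bZIP proteins and NFIL3 are known to act. Each gene was read by its brightest probe. Of the 8 genes listed, 4 exceeded the noise limit on at least 3 arrays, while Per3, Cry1, Rora and Rorb did not. None of the 4 was called by limma over all probes, all 4 had a change below 0 (3 with median scaling and 2 without normalization between arrays), and 3 had an unadjusted p under 0.05, as did 5.21% of all symbols in that direction. Their median log2 change was -0.38, against 0.00099 over all symbols measured the same way, of which 49.8% were below 0. In 3 of the 4 every normalized 16 h value was above every 4 h value, which held for 5.71% of all such symbols. None of these 3 was so separated in the deposited intensities. There 1 of the 4 genes had the lower mean at 4 h, as did 448 of all 12342 such symbols. All 4 genes are also known to be driven through the E-box, so the D-box and the E-box cannot be told apart in this list.

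Nr1d2, which encodes the repressor REV-ERB beta, had log2 intensities of 8.59, 8.42 and 8.18 at 4 h and of 8.97, 8.76 and 8.95 at 16 h. Its log2 change of -0.49 (SE 0.11, limma adjusted p = 0.405) was of the size of that of Dbp. Per2, which encodes an inhibitor of BMAL1 and CLOCK, was at 8.20, 7.77 and 7.74 at 4 h and at 8.36, 8.35 and 8.37 at 16 h, a change of -0.46 (SE 0.12, limma adjusted p = 0.537). Its spread lay almost wholly in the 4 h arrays, of which replicate 1 was the highest. Per1, its paralog, changed by -0.30 (SE 0.0796, limma adjusted p = 0.583). A second probe gave -0.20 for Per1 and -0.30 for Per2. Nr1d1, which encodes REV-ERB alpha, changed by -0.12 (SE 0.078, limma adjusted p = 0.948), was above the noise limit on 5 arrays, and its time points overlapped. Without background correction Nr1d1 was at -0.53, Per1 at -0.45 and Dbp at -0.52. Without normalization between arrays the median of the 4 genes was 0.03, but in that setting as in the other scalings tried all 4 lay below the median of the detected probes.

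Targets of PAR bZIP proteins outside the clock, taken mainly from work on liver, had a median change close to that of all genes. The measured genes lay between -0.06 and 0.17 by their brightest probe. Of 14 genes listed, 13 had a probe and 5 exceeded the noise limit on at least 3 arrays. None was called, 2 were below 0 (0 with median scaling or without normalization between arrays) and 3 above, and in none did the brightest probe separate the time points in the direction of Tef, against 5.71% of all symbols. The median log2 change was 0.03, and it was 0.39 with median scaling and 0.48 without normalization between arrays, where the detected probes had medians of 0.30 and 0.39. Pdxk, listed under the older symbol 2310036D04RIK, encodes the kinase of vitamin B6 activation and was at -0.06 (SE 0.0796), or at -0.12 without background correction. Por, the electron donor of cytochrome P450 enzymes, was at -0.01 (SE 0.10), and Alas1, the rate-limiting enzyme of heme synthesis, was at 0.17 (SE 0.078, limma adjusted p = 0.919). Nr1i3, which encodes the xenobiotic receptor CAR, was at 0.06 (0.56 without background correction) and was above the noise limit on 3 arrays only. Vegfa, an angiogenic growth factor, was at 0.03 by its brightest probe. Another Vegfa probe was at -0.24 (unadjusted p = 0.0128, limma adjusted p = 0.742), with every 16 h value above every 4 h value. The 8 other genes with a probe, among them Cyp7a1, Cyp2b10 and Ppara, were not measurable here. The difference between the 2 lists was not tested.

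The genes that control the activators were read the same way. Among 10 clock genes known to be driven through the E-box, which include the 4 above, 7 exceeded the noise limit on at least 3 arrays. None was called and all 7 were below 0 (6 with median scaling and 5 without normalization between arrays), with a median log2 change of -0.41 and with separated time points in 6. Over all symbols 49.8% were below 0 and 5.71% were separated. In the deposited intensities none of those 6 genes was separated. There 4 of the 7 had the lower mean at 4 h, as did 448 of all 12342 such symbols. The median of the 7 was -0.11 with median scaling and -0.02 without normalization between arrays, where that of the detected probes was 0.30 and 0.39. Beside those already given, Ciart, a repressor of BMAL1 and CLOCK, was at -0.55 (SE 0.094, limma adjusted p = 0.217), Bhlhe40, which competes for the E-box, at -0.41 (SE 0.082, limma adjusted p = 0.323) and Cry2 at -0.28 (SE 0.073, limma adjusted p = 0.558). The remaining Ciart probes gave -0.27 and -0.37, so by its brightest probe alone Ciart changed more than Dbp. Without background correction Cry2 was at -0.94 and Bhlhe40 at -0.73. Arntl, which is driven through the RORE as Nfil3 is, was at 7.38, 7.36 and 7.45 at 4 h and at 6.80, 6.93 and 6.89 at 16 h. Its log2 change of 0.52 (SE 0.069, limma adjusted p = 0.138) was opposite in sign to that of Tef, and it was 0.95 without background correction. Clock, which encodes the partner of BMAL1, was at 0.22 (SE 0.10, limma adjusted p = 0.919) by its brightest probe and at -0.05 (limma adjusted p = 0.975) by another.

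**Figure D3:**
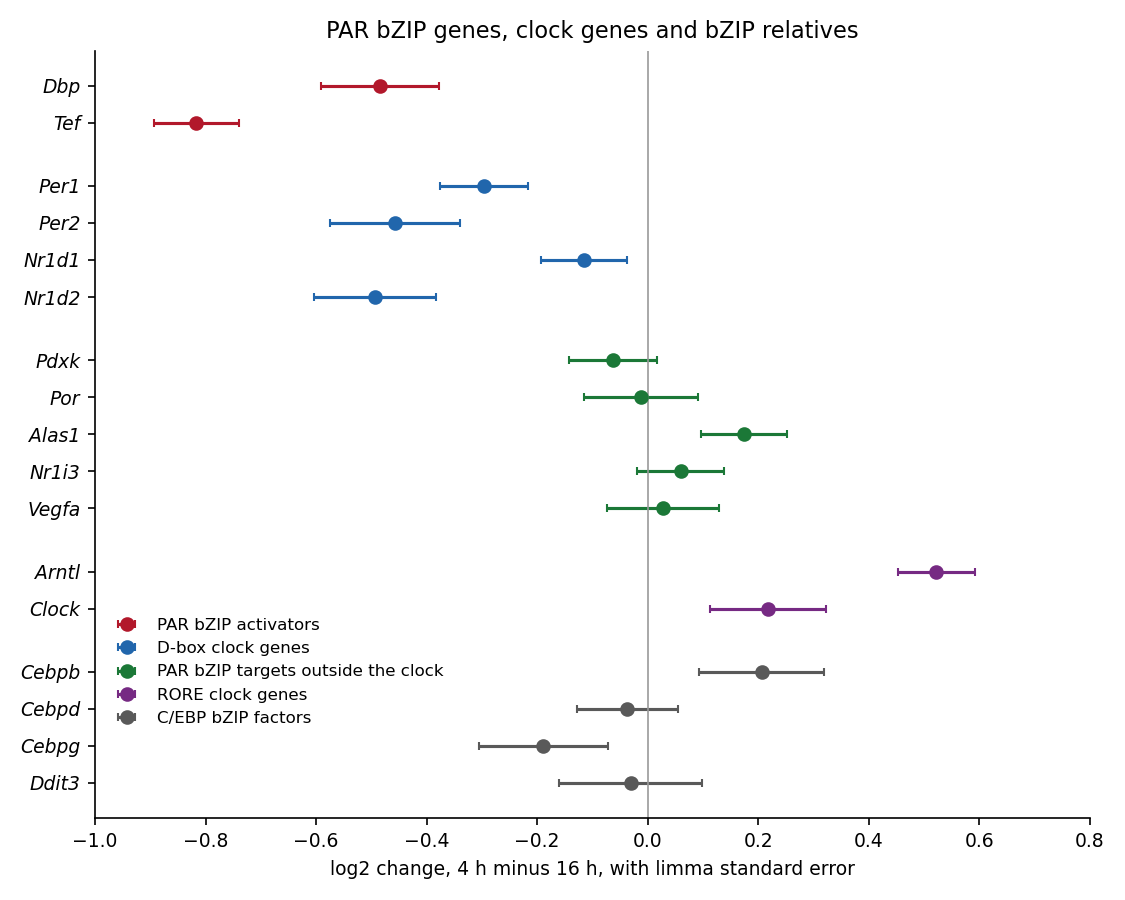
Log2 change, 4 h minus 16 h, with its limma standard error (n = 3 arrays per time point), for the brightest probe of each gene over the noise limit on at least 3 arrays. Tef (-0.82) and Dbp (-0.48) lie left of 0 with the D-box clock genes (-0.49 to -0.12), the targets outside the clock lie around 0 (-0.06 to 0.17), and Arntl lies at 0.52.

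The probes most like Tef were found by the root mean square difference of log2 intensity, centered on each probe's own mean, over the 6 arrays. The closest 6 of the detected non-member probes were those of Renbp (0.073), Klhl24 (0.082), Cldn23 (0.108), Ypel3 (0.131), Sparcl1 (0.131) and Gabarapl1 (0.141). Renbp, which encodes a renin-binding protein, had a log2 change of -0.74 (limma adjusted p = 0.150). Klhl24, a substrate adaptor of a ubiquitin ligase listed under the older symbol 1110046J11RIK, was the other probe called lower at 4 h, with a change of -0.72 (limma adjusted p = 0.0338). Gabarapl1, a member of the ATG8 family of autophagy, was at -0.61, Ypel3 at -0.68, Cldn23, a claudin of tight junctions, at -0.64 and Sparcl1, a matrix protein, at -0.60. Such probes were chosen for their likeness to Tef, so their separation of the time points is a description. Among the 16 h arrays, replicate 1 was the lowest for Tef, Renbp, Cldn23, Ypel3 and Sparcl1. Replicate 2 was the lowest for Gabarapl1 and replicate 3 for Klhl24.

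**Figure D4:**
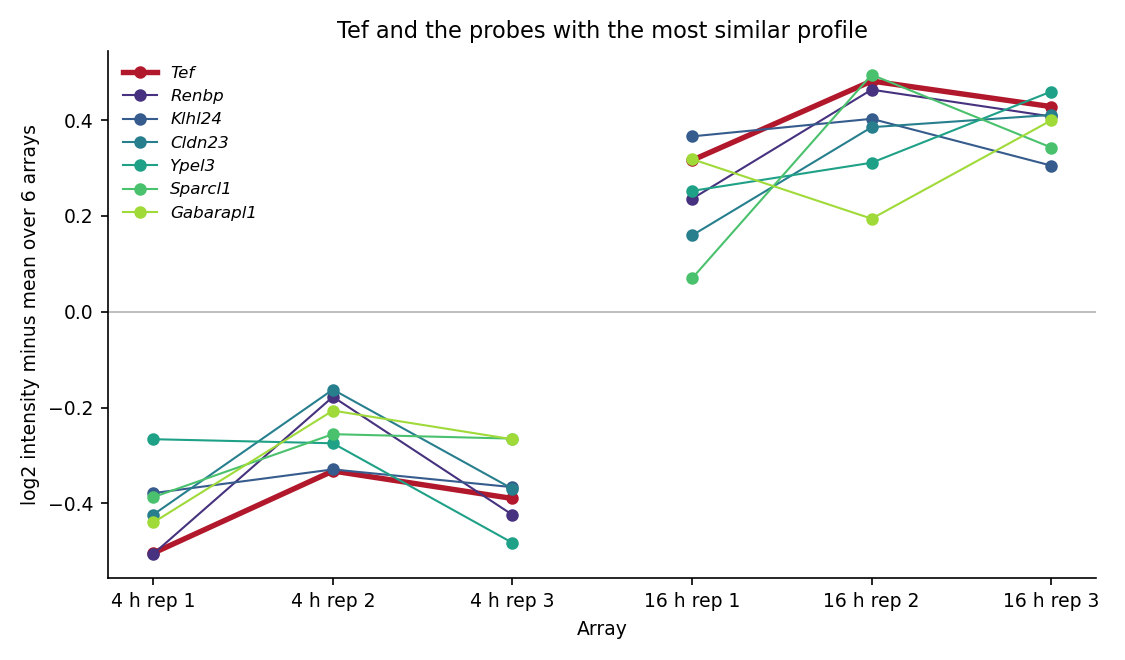
Normalized log2 intensity minus the mean over the 6 arrays, for Tef (thick red) and the 6 probes closest to it. Lines join the arrays of a time point as a guide to the eye, and the replicates have no order. All 7 probes lie below 0 on the 4 h arrays and above 0 on the 16 h arrays.

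**Figure D5:**
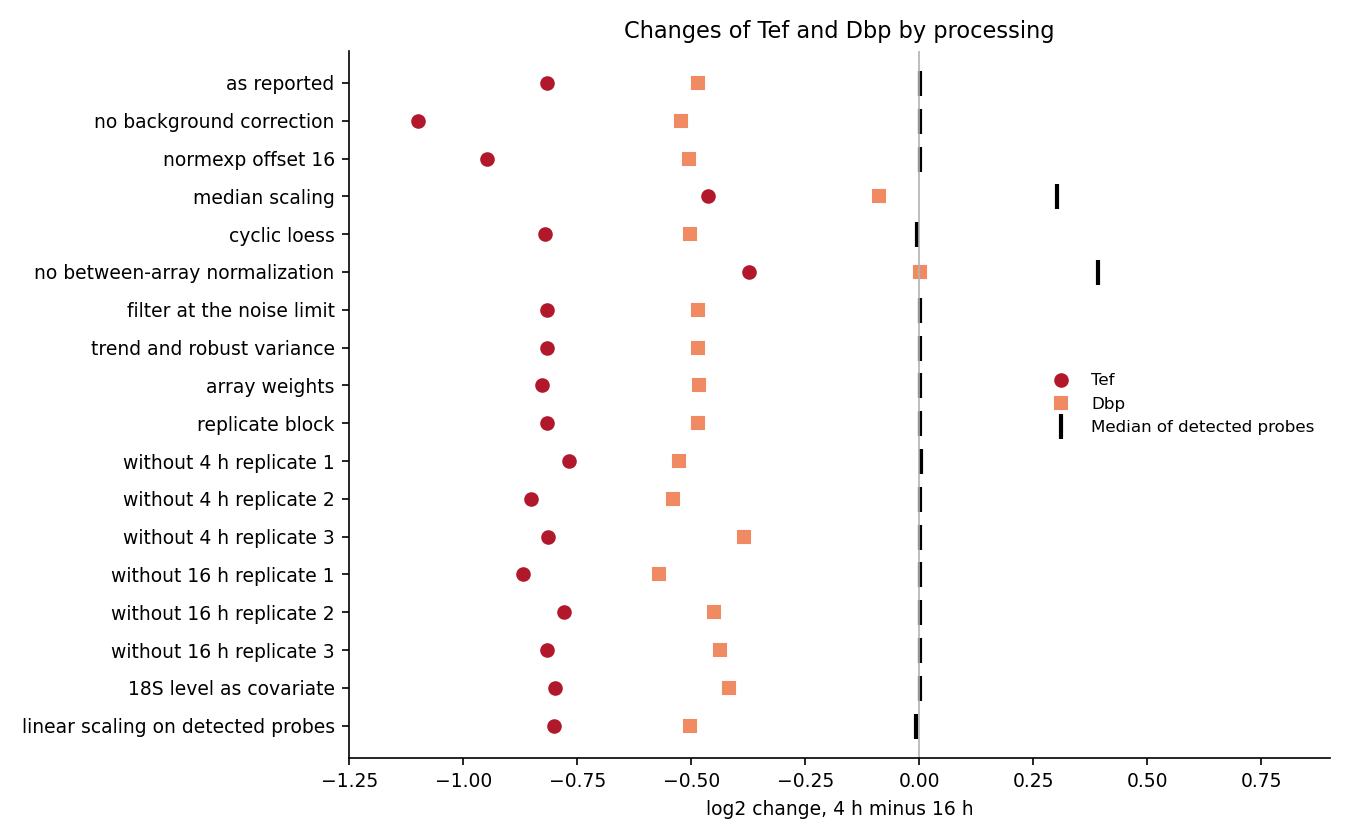
Log2 change, 4 h minus 16 h, of Tef (circles) and Dbp (squares) in each way of processing, with the median of the detected probes (vertical ticks). Tef lies between -1.10 and -0.37. Dbp lies left of the median of the detected probes in every setting that has this median, which averaged probes lack. Without normalization between arrays Dbp lies at 0.0011.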

How the data were processed

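Total RNA of 6 samples was hybridized to 1 array each. The deposited table holds background-subtracted intensity on a linear scale, which the authors had not normalized between arrays, with 31.2% to 34.0% of an array's values below 0. The scanner software and slides are not given in the sources used here, and the study's methods name limma. After normexp correction (offset 50) and quantile normalization, log2 values were fitted to the time point with lmFit and eBayes (limma 3.58.1, R 4.3.3), with Benjamini-Hochberg adjustment over 45281 probes (threshold 0.05, two-sided). The offset shrinks changes of dim probes, and quantile normalization removes changes shared by most probes. The noise limit of an array was the 99th percentile of its values below 0 with the sign turned, and changes are given for probes above it on 3 or more arrays. The members, lists and tests were chosen with earlier results of these data known. Named were all member probes, all measurable genes of the lists and the 6 probes most like the member probe with the largest SD. The procedure was tested on simulated data. Alternatives covered background, scaling, filter, variance, array weights, the replicate number, single arrays and averaged probes. An 18S covariate, linear scaling by a trimmed mean over the detected probes and the comparison of Tef with Dbp were added after the data had been seen. A marker gene of the lists is not reported here.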

Additional observations from a re-analysis of the deposited data

How the results depend on the processing

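The counts of called probes (2 higher and 2 lower at 4 h) were sensitive to processing. They were 19 and 10 without background correction, 0 and 0 with an offset of 16, 832 and 0 with median scaling, 2308 and 0 without between-array normalization, 0 and 2 with cyclic loess, 0 and 0 after a filter at the noise limit, and 1 and 0 with trend and robust variance. Where limma called 0, its unadjusted p was under 0.05 for 1225 higher and 1261 lower probes (offset 16), 595 lower (median scaling), 22 lower (no normalization between arrays), 1148 higher (cyclic loess), 524 and 504 (filter) and 1253 lower (trend and robust variance). Leaving out 1 array gave 0 to 0 in both directions, with 940 to 1571 higher and 909 to 1648 lower at that p. Median scaling and no normalization moved the median of the detected probes to 0.30 and 0.39.

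Tef stayed below 0 in all 18 alternatives. Its limma call was lost without background correction (-1.10, adjusted p = 0.117), with an offset of 16 (-0.95, 0.0611), median scaling (-0.46, 0.0533), no normalization between arrays (-0.37, 0.0744), the filter (-0.82, 0.0739), trend and robust variance (-0.82, 0.0514), probes averaged (-0.44, 0.144) and any array left out (-0.87 to -0.77). The call was kept with cyclic loess (0.0443), array weights (0.0289), the 18S covariate (0.0402) and linear scaling (0.0424). Dbp was called in none (adjusted p 0.178 to 0.999), stayed below 0 in 17 of 18 (-0.57 to -0.38 with an array left out) and was at 0.0011 without normalization between arrays. Its change was -0.09 with median scaling. Tef minus Dbp was -0.58 without background correction, 0.045 with probes averaged (the second Tef probe lay below the noise limits) and -0.44 to -0.24 in its other 16 alternatives. The cause was not tested.

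Replicate numbers were shared by both time points, but deviations of equal numbers correlated at 0.25, 0.17 and -0.49, so the numbers were not taken to pair the samples. With the replicate block, Tef was at -0.82 with a limma adjusted p of 0.215 and the calls were 0 higher and 0 lower, with 1268 and 1221 at an unadjusted p under 0.05. Activator minus repressor was not run, as Nfil3 was not analysed here. Signal near background limited Hlf and the second Tef probe.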

Other observations

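The C/EBP factors, bZIP relatives that can share binding sequences with PAR bZIP proteins, were read beside Tef and Dbp. Of 6 genes listed, 4 exceeded the noise limit on at least 3 arrays, and 0 were called by limma over all probes. None of the 4 had a limma unadjusted p under 0.05, and in none were the time points separated in either direction. Of 12342 symbols measured the same way, 705 (5.71%) were separated with 16 h above 4 h and 800 with 4 h above 16 h. Their limma unadjusted p was under 0.05 for 643 lower and 712 higher at 4 h. With 4 genes, 0 cannot be told apart from such shares. Cebpb, a mediator of cAMP and inflammatory responses, had a log2 change of 0.21 (SE 0.11), and Cebpd was at -0.04 (SE 0.091). Cebpg, a partner without an activation domain, was at -0.19 (SE 0.12), and Ddit3, the stress factor CHOP, was at -0.03 (SE 0.13). Cebpa and Cebpe were not measurable here. With median scaling 0 of the 4 were below 0, and 1 of the 4 lay below the median of the detected probes.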
